A study of Arabidopsis thaliana with 9 samples.

Results

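The mitochondrial genome of Arabidopsis thaliana is described here through every locus of the expression table whose identifier starts with ATMG, which are 152 of 32833 loci. No expression value entered this choice. Plant mitochondria keep a small genome of their own that encodes some subunits of the respiratory complexes, of the ATP synthase and of the mitochondrial ribosome, along with factors that attach haem to cytochrome c. The remaining subunits of those complexes come from nuclear genes. In plant mitochondria, a poly(A) tail is mostly a mark for decay of a transcript.

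The study compares ntrc mutants with wild type in work on iron homeostasis. NTRC is a redox enzyme of chloroplasts in which a thioredoxin and its NADPH-driven reductase are fused. The 9 libraries form 3 groups of 3 labelled biological replicates. Wild-type Col-0 and ntrc mutant seedlings came from MS medium in continuous light at an age of 6 days. The adult group consists of young rosette leaves of ntrc plants aged 8 weeks, kept in soil in short days and taken after 2 h of light, with leaves of 3 plants in each library. Light was 125 µE per square metre and second in all groups. Adult wild type is not analysed here, so the genotypes were compared in seedlings only. Per the labels' protocols, seedling libraries were made with a stranded mRNA kit and adult libraries with a stranded total RNA kit that removes ribosomal RNA, while both carry the molecule label polyA RNA. Kit, age, tissue, light regime and medium therefore change together between the stages and cannot be told apart.

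Values are FPKM, fragment numbers corrected for the length of the transcript and for the size of the library, so they are per length and levels of different loci can be set side by side. Depth is unknown because the table holds no counts, so error is taken from the 3 libraries of each group. The NTRC transcript (AT2G41680) had a mean ± SD (n = 3) of 149 ± 23.3 FPKM in the wild type, 17.8 ± 1.64 in the mutant seedlings and 15.8 ± 0.616 in the adult mutant, and was thus low in each library labelled ntrc. Of 10 root markers, 0 were listed at 0 in any seedling library and 4 in each adult library. Most of their summed level came from 1 marker, PYK10, with 1260 to 1642 FPKM in the wild type, 1474 to 1586 in ntrc seedlings and 1.32 to 4.93 in adults. The other 9 summed to 70.9 to 111 FPKM in the wild type, 85.2 to 94.8 in ntrc seedlings and 7.51 to 8.10 in adults. Of the 5 leaf photosynthesis markers, all were above 0 in every library. A seedling library had 18539 to 18829 loci at 1 FPKM or more, and an adult library 15331 to 15460.

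Only part of the ATMG loci could be given a function. The RefSeq annotation of TAIR10.1 does not list ATMG identifiers as genes. Its notes on nuclear genes of chromosome 2 that resemble mitochondrial ones describe 53 of the 152. For 25 of these the note gives a protein family, a domain or a conserved protein. By these notes, 5 fall under the ATP synthase, 3 under complex I, 4 under complexes III and IV and 3 under cytochrome c biogenesis. Another 4 are noted as ribosomal proteins and 6 as other kinds. A note does not show that a locus is the functional gene. ATMG00590, for example, is noted only as a cytochrome b/b6 protein and ATMG01280 as cytochrome c oxidase subunit II-like. These 25 are called described loci below, although 1 of them, ATMG01010, is noted only as an unknown conserved protein. The other 28 notes give unknown proteins or pseudogenes, and 99 have no description, so they are given by identifier alone.

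Many of these loci have a near-identical copy in the nucleus. A large insertion of mitochondrial DNA on chromosome 2 is well known in this accession, and short reads cannot tell 2 identical sequences apart. In the RefSeq TAIR10.1 assembly, 33 of 56 mitochondrial coding segments matched a nuclear chromosome over their full length with no difference, and 32 of these 33 best matches were on chromosome 2. For 21 of 32 mitochondrial gene symbols, every segment matched at 99% identity or more over at least 99% of its length. The 11 others were atp4, atp6, ccmB, cox1, cox2, nad1, nad4L, nad5, nad9, rpl16 and rps3. Some of these symbols had segments that did match in full, such as the 1158 bases of atp6 at MT:49423-50580, identical on chromosome 2. The coding sequence of atp9, which encodes the membrane ring subunit of the ATP synthase, is shown because its locus had the second largest share of mitochondrial expression in adult leaves. Its 225 bases lie at MT:270961-271185 on the minus strand and are the same, base for base, at chr2:3251856-3252080 on the minus strand, within AT2G07671.
atp9: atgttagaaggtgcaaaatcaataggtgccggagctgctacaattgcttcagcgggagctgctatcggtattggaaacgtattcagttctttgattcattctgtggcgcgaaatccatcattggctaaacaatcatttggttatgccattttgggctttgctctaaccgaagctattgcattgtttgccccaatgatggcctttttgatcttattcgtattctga

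A single base separates some copies. The gene ccmC encodes a protein of the pathway that delivers haem to cytochrome c and has 2 copies on chromosome 2. Over its 771 coding bases, the copy in AT2G07771 had 0 differences and the copy in AT2G07681 had 1, G550A, counted from 1 at the first base of the mitochondrial coding sequence. The windows of 121 bases around that base are shown in coding orientation with the differing base in capitals, from MT:308787-308907 (plus strand), chr2:3239854-3239974 (minus strand) and chr2:3290720-3290840 (plus strand).
mitochondrial ccmC: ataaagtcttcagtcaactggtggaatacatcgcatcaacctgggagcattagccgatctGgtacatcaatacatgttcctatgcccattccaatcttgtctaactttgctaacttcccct
copy in AT2G07771: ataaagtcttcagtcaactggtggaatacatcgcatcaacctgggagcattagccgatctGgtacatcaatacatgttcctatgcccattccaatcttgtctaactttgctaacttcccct
copy in AT2G07681: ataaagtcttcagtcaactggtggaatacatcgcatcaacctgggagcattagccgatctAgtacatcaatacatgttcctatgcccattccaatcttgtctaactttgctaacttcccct

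Neighbouring genes can also share a transcript in plant mitochondria. The genes shown are nad3, for a membrane subunit of complex I, and rps12, for a protein of the small ribosomal subunit. Loci described with these functions had the 2 highest means of the described loci in seedlings. The last 60 bases of nad3, the 45 bases between the genes in capitals and the first 60 bases of rps12 run from MT:288341-288505 on the plus strand, and the same 165 bases are also present on chromosome 2.
nad3 to rps12: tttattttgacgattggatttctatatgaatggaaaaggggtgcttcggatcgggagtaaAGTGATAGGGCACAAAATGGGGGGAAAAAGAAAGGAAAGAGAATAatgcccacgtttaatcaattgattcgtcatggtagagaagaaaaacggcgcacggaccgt

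In the seedling libraries, made with an mRNA kit, mitochondrial loci made up a very small part of summed FPKM. Their part did not differ detectably between genotypes. How much mitochondrial RNA such a kit misses was not tested. The summed FPKM of mitochondrial loci was 0.0167%, 0.0214% and 0.0290% of the total in wild type and 0.0266%, 0.0207% and 0.0307% in ntrc. The ranges overlapped, with means of 0.0223% ± 0.0062 and 0.0260% ± 0.0050 (SD, n = 3 each) and a difference of 0.00365 percentage points (exact permutation test, two-sided, p = 0.5, adjusted p = 0.8 over 5 tests on library summaries). With 3 libraries against 3 this test cannot go below 0.1. In such whole-tissue libraries, fewer cells of a type and less RNA per cell cannot be told apart. Plastid loci had 0.216% to 0.388% of the total in wild type and 0.329% to 0.530% in ntrc seedlings. Between 66 and 84 mitochondrial loci were listed at 0 in a seedling library, and 37 were at 0 in all 6. A total of 8 to 10 loci in wild type and 10 to 13 in ntrc reached 1 FPKM.

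A few loci carried nearly all of this signal. ATMG00020 stood at 33.6, 54.0 and 65.0 FPKM in wild type and at 62.9, 52.4 and 74.5 in ntrc seedlings. ATMG01390 stood at 29.7, 39.7 and 60.5 FPKM in wild type and at 51.5, 38.7 and 60.01 in ntrc seedlings. In both, wild-type library 1 was the lowest and the genotypes overlapped. The pair made up 63.8% ± 1.54 of mitochondrial FPKM in wild type and 64.6% ± 2.63 in ntrc. The next was ATMG00030 with 11.0, 22.0 and 29.9 FPKM in wild type and 19.0, 18.6 and 31.6 in ntrc. These 3 identifiers have no description in the sources used here. Whether each encodes a protein or a ribosomal RNA is therefore not known from them.

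Among described loci in seedlings, the 2 with the highest means were 1 of protein synthesis and 1 of complex I. ATMG00980, described as a ribosomal protein S12/S23 family member, had 4.45, 8.92 and 8.24 FPKM in wild type and 5.61, 10.1 and 5.41 in ntrc. ATMG00990, described as NADH dehydrogenase 3, had 1.76, 2.48 and 2.69 FPKM in wild type and 1.91, 2.65 and 2.19 in ntrc. In both loci the ntrc values lay within or close to the wild-type range, and ntrc library 2 was the highest of the ntrc libraries. ATMG01190, described as ATP synthase subunit 1 (the alpha subunit of the catalytic head), had 0.895, 1.03 and 1.17 FPKM in wild type and 1.28, 1.14 and 1.57 in ntrc, with a small overlap. No other described locus except ATMG00280 had a mean of 1 FPKM or more in seedlings. In ntrc seedlings the mean of ATMG00280, 2.248 FPKM, was almost that of ATMG00990, 2.251 FPKM.

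No mitochondrial locus passed the genotype test. The test used limma on log2(FPKM + 1), two-sided, over the 18818 loci that reached 1 FPKM in 3 or more of the 6 seedling libraries, with Benjamini-Hochberg adjustment and a threshold of 0.05. Of the 152 mitochondrial loci, 10 entered the test and 142 were too low. Of those 10, 0 were called, with a smallest adjusted p of 0.947, against 0.0266% of all tested loci. With the replicate number as a block, 0 were called and the smallest adjusted p was 0.167, against 0.388% of all loci. At an unadjusted p under 0.05, limma gave 3 of the 10, against 5.01% of all loci. The mean was higher in ntrc for 8 of the 10, against 51.2% of all loci, and the median log2 fold change of the 10 was 0.22, against 0.0037 over all tested loci. Without wild-type library 1 the median was 0.043 and 6 of the 10 were higher, so that library decides much of the value. Without wild-type library 3 the median was 0.43, and without ntrc library 2 it was 0.37. Without ntrc library 3 it was 0.12.

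The locus with the smallest p was ATMG00280, described by a domain of the Rubisco large chain, the carbon-fixing enzyme whose functional gene lies in the plastid genome. It stood at 1.05, 1.55 and 1.35 FPKM in wild type and at 2.05, 2.27 and 2.42 in ntrc seedlings, so the 3 ntrc libraries were above the 3 wild-type libraries. The log2 fold change was 0.49 (SE 0.13, limma unadjusted p = 0.00587, adjusted p = 0.947, 0.167 with the block), in 3 of 3 pairs. Its chromosome 2 counterpart AT2G07732 stood at 1.24, 1.54 and 1.65 FPKM in wild type and at 1.91, 2.12 and 3.03 in ntrc seedlings, also without overlap. AT2G07732 matched the plastid genome over 573 bases at 96.9% identity, inside rbcL, and the mitochondrial genome over 740 bases at 99.7%. Plastid loci also had a higher mean share in ntrc seedlings, 0.431% against 0.321%, and the part of plastid RNA in the ATMG00280 value was not tested.

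Next came 2 loci without description. ATMG01380 had 2.34, 1.25 and 0.877 FPKM in wild type and 3.15, 2.01 and 5.15 in ntrc, with overlap and a log2 fold change of 0.81 (SE 0.31, limma unadjusted p = 0.0335). ATMG00660 had 0.964, 1.85 and 1.34 FPKM in wild type and 2.08, 1.87 and 2.26 in ntrc, without overlap, and a log2 fold change of 0.38 (SE 0.16, limma unadjusted p = 0.0467). Groups that do not overlap were thus seen in 2 of the 10 loci, in each case with ntrc higher. Over all tested loci 9.76% did not overlap, and 5.39% did so with ntrc higher. The log2 fold changes of the other 7 lay between -0.029 for ATMG00980 and 0.35 for ATMG00020. Values within a genotype spread more for these loci than for most genes, with a median coefficient of variation of 31.6% in wild type and 17.1% in ntrc, against 12.1% and 8.92% over all tested loci.

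**Figure D1:**
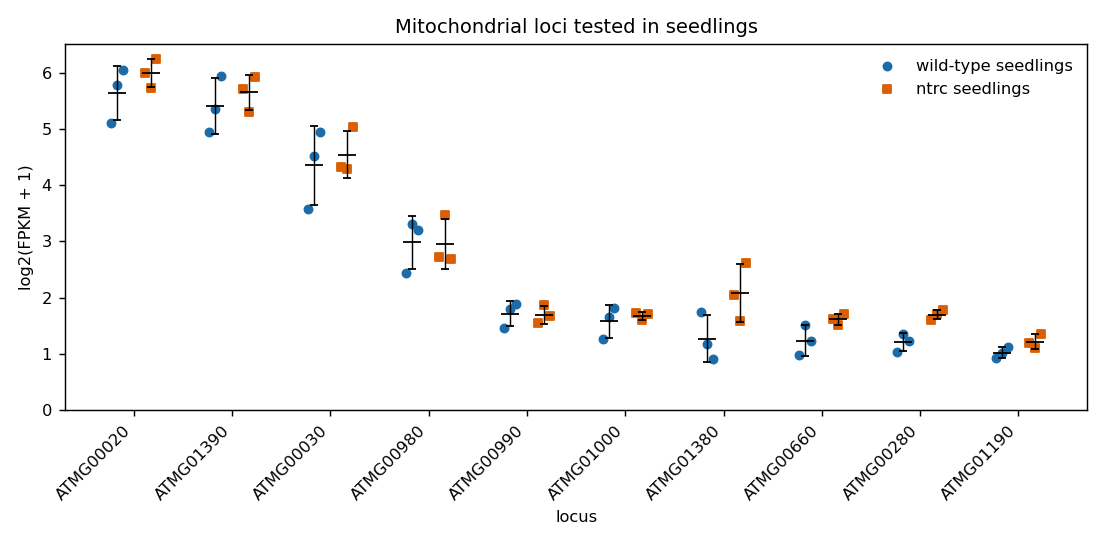
Level of the 10 mitochondrial loci that entered the genotype test, as log2(FPKM + 1), in 3 wild-type (circles) and 3 ntrc (squares) seedling libraries, with mean and SD in black. Only ATMG00280 and ATMG00660 have all ntrc points above all wild-type points, and none of the 10 passed the adjusted threshold.

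Nuclear genes for the same complexes were not called either. Among 24 nuclear subunits of complex I, limma called 0, with log2 fold changes from -0.11 to 0.11 and a median of -0.0073. Its genes with the smallest p were AT2G20360, annotated as a Rossmann-fold protein (log2 fold change -0.10, SE 0.085), AT1G79010, annotated as an alpha-helical ferredoxin (0.11, SE 0.098), and GAMMA CA3, a gamma carbonic anhydrase (-0.11, SE 0.11). Of 25 nuclear genes for complexes II, III and IV and cytochrome c, 0 were called, and 16 had a lower mean in ntrc (median -0.059). There the smallest p belonged to CYTC-2, a cytochrome c (log2 fold change 0.22, SE 0.14), SDH2-1, the iron-sulfur subunit of complex II (0.16, SE 0.10), and MPPalpha, a processing peptidase subunit that is part of complex III in plants (-0.15, SE 0.10). Of 8 nuclear ATP synthase genes, 0 were called, and 7 had a lower mean (median -0.081). The loci with the smallest p there, AT5G08670 and AT5G08690, both annotated as ATP synthase alpha/beta family proteins, had log2 fold changes of -0.14 and -0.13, and ATP3, the gamma subunit, one of -0.13. The alpha/beta loci are close paralogs that may share reads. In each list no gene reached an unadjusted p under 0.05.

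Factors that read and maintain the mitochondrial genome gave no call. Of 30 such nuclear genes 29 were tested and 0 called, 12 with a higher and 17 with a lower mean (median -0.037). WTF9, a factor known for splicing of mitochondrial introns, had the smallest p, with 1.62, 1.46 and 1.53 FPKM in wild type and 2.24, 1.94 and 1.74 in ntrc. The ntrc libraries were all higher, but the log2 fold change of 0.23 (SE 0.12) had a limma adjusted p of 0.947. MGP3, annotated as male gametophyte defective 3, had a log2 fold change of -0.14 (SE 0.10), and AT4G31010, annotated as a CRM domain protein that binds RNA, one of 0.14 (SE 0.10).

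Genes for alternative respiration, mitochondrial stress and mitochondrial iron held the largest fold changes among the nuclear lists of mitochondrial function. NDB3, an external NAD(P)H dehydrogenase of the inner membrane, had 0.736, 0.647 and 0.971 FPKM in wild type and 1.61, 1.57 and 2.37 in ntrc. Its log2 fold change was 0.67 (SE 0.16, limma unadjusted p = 0.00302, adjusted p = 0.947, 0.101 with the block). The ntrc libraries were all above wild type, yet the gene was not called in either fit, and 0 of the 9 tested genes of that list were called. NDC1 and NDB1, other NAD(P)H dehydrogenases of that list, followed with log2 fold changes of -0.17 (SE 0.084) and -0.15 (SE 0.10).

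In the stress and iron lists, calls appeared only in the fit with the replicate block. FER4, a ferritin that stores iron in plastids and mitochondria, had 14.7, 16.0 and 21.8 FPKM in wild type and 25.3, 37.6 and 39.7 in ntrc. It was higher in 3 of 3 pairs without overlap, by 0.92 on the log2 scale (limma adjusted p = 0.947 without and 0.0268 with the block). FRO3, a ferric reductase of mitochondria that responds to iron deficiency, had 74.7, 47.2 and 32.6 FPKM in wild type and 39.0, 20.8 and 17.8 in ntrc. Its level was lower in 3 of 3 pairs, with some overlap and a log2 fold change of -0.97 (limma adjusted p = 0.947 without and 0.0145 with the block). The carrier DIC2, which exchanges dicarboxylates across the inner membrane and is induced by stress, had 166, 21.3 and 43.2 FPKM in wild type and 82.4, 7.89 and 12.2 in ntrc. The libraries with number 1 were high in both genotypes, and the log2 fold change was -1.36 (limma adjusted p = 0.947 without and 0.0337 with the block). Of 16 tested genes of the redox and iron list, 1 was called higher and 1 lower with the block, and of 9 tested stress genes 1 was called lower, against 0.388% of all tested loci in that fit. Without the block 0 were called in either list, against 0.0266% of all loci. A lower mean in ntrc was seen in 11 of 16 and 8 of 9 genes, whereas 51.2% of all tested loci had a higher mean. The other genes with the smallest p did not pass in either fit: ABCB25, an exporter of the inner membrane linked to iron-sulfur assembly, had a log2 fold change of -0.19 (SE 0.10). In the stress list NAC017, a transcription factor of mitochondrial retrograde signalling, had one of 0.095 (SE 0.086). UGT74E2, a glycosyltransferase that rises under stress, had one of -0.63 (SE 0.69). Limma also called 0 of the 10 root markers, 0 of 7 dividing-cell markers and 0 of 5 leaf photosynthesis markers in either fit, with median log2 fold changes of 0.069, 0.021 and 0.18. Their genes with the smallest p were ESB1, AT5G48940 and RHD6 for root (log2 fold changes -0.73, -0.21 and -0.19), SYP111, TSO2 and PCNA1 for dividing cells (0.26, -0.45 and -0.11) and LHCA3, CAB1 and PSBO1 for leaf photosynthesis (0.36, 0.35 and 0.18).

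In adult ntrc leaves the mitochondrial loci formed a different profile. Every one of the 152 was above 0 in all 3 libraries, and 120 reached 1 FPKM in all 3. Their share of summed FPKM was 1.35% to 1.499%, with a mean of 1.40% ± 0.0817 (SD, n = 3), and the plastid loci held 47.0% to 49.2%. The deposited values were scaled separately for the 2 stages, so these levels are given side by side. The shares within mitochondrial FPKM were compared, since they do not depend on that scaling if it multiplied each library's FPKM by a constant factor. How the scaling was done is not given. The median coefficient of variation of a mitochondrial locus across the adult libraries was 9.37%.

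Mitochondrial FPKM in adult leaves was spread over many more loci. The adult kit removes ribosomal RNA, and the descriptions used here do not mark loci that encode it. Shares without such loci were not computed. The 5 most abundant loci of a library held 80.7%, 85.2% and 86.9% of mitochondrial FPKM in the wild-type seedling libraries. Those of ntrc seedlings held 83.9%, 83.9% and 83.7%, and in adults 37.1%, 35.5% and 35.6%. The stages of ntrc did not overlap (exact permutation test, two-sided, p = 0.1, the smallest that 3 against 3 allow, adjusted p = 0.25 over the 5 tests). The seedling genotypes overlapped (exact permutation test, two-sided, p = 0.8). An effective number of loci, 1 over the sum of squared shares, was 4.39 ± 0.259, 4.31 ± 0.216 and 23.5 ± 0.966 in the 3 groups. For it the exact permutation p was 0.7 between genotypes and 0.1 between stages. To reach 90% of mean mitochondrial expression took 12, 11 and 36 loci in the same order.

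Which loci led differed between the stages. The 10 loci with the highest mean share were the same in both seedling genotypes, and 3 of those 10 were also among the 10 highest in adult ntrc leaves. In adults the order was ATMG00030, ATMG01080, ATMG01190, ATMG01360, ATMG00060, ATMG00020, ATMG00070, ATMG00160, ATMG00640 and ATMG00080. The first, ATMG00030, had 1140, 1026 and 1092 FPKM and a share of 11.1% ± 0.577, overlapping with its 13.0% ± 1.89 in ntrc seedlings. For ATMG00020 the share was 36.1% ± 0.918 in ntrc seedlings and 4.91% ± 0.422 in adults. That of ATMG01390 was 28.4% ± 1.93 and 2.78% ± 0.274. Their shares were thus 7.36-fold and 10.2-fold higher in seedlings, and the libraries of the stages did not overlap. Whether ATMG00020 or ATMG01390 encodes ribosomal RNA, which the adult kit removes, is not known from the sources used here.

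**Figure D2:**
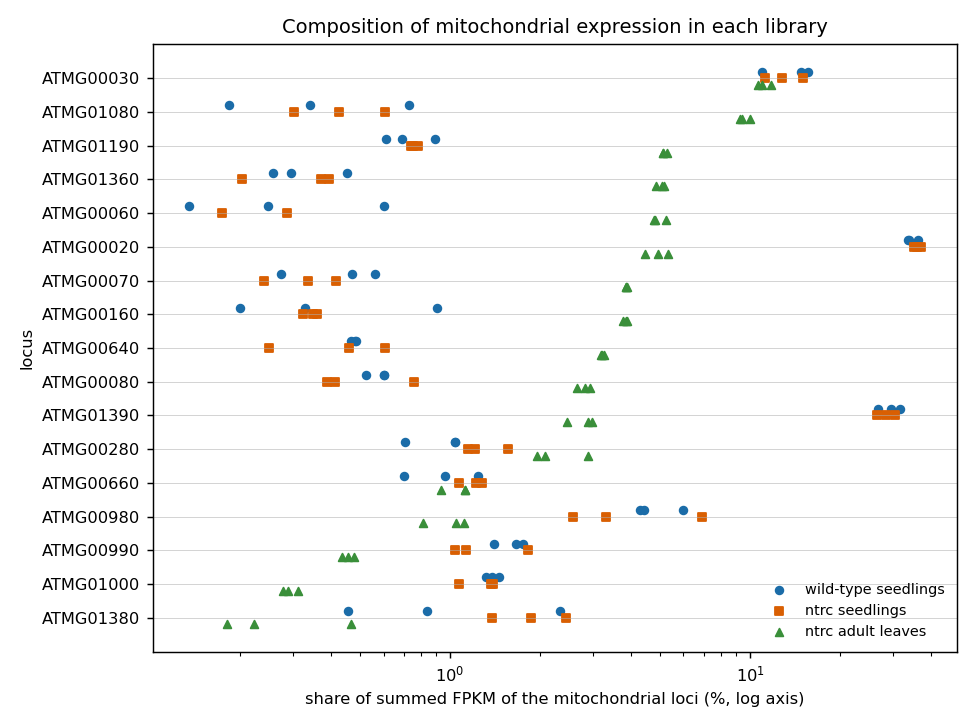
Share of each of 17 loci in the summed FPKM of all mitochondrial loci (log axis) in each of the 9 libraries, for the loci among the 10 highest in any group. ATMG00020 and ATMG01390 hold 63.8% in wild-type and 64.6% in ntrc seedlings and 7.68% in adult leaves, whereas ATMG01080 and ATMG01190 lie far to the right in adult leaves only, and a library at 0 has no point.

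Among the described functions, ATP synthase loci held the largest share in adult leaves. ATMG01080, described as F0-ATPase subunit 9, had 967, 893 and 936 FPKM in adult leaves and 1.03, 0.620 and 0.636 in ntrc seedlings. As a share of mitochondrial FPKM this was 9.56% ± 0.375 in adults and 0.445% ± 0.155 in ntrc seedlings, 21.5-fold apart. ATMG01190, ATP synthase subunit 1, had 496, 493 and 525 FPKM in adult leaves and a share of 5.18% ± 0.0936, against 0.759% ± 0.0207 in ntrc seedlings. ATMG00480, subunit 8 of the membrane part, went from 0.222% to 2.49%, and ATMG00410, subunit 6-1, which forms the proton path with the subunit 9 ring, from 0.0822% to 1.05%. The 5 described ATP synthase loci together held 1.57% ± 0.573 in the wild type, 1.61% ± 0.116 in ntrc seedlings and 18.6% ± 0.397 in adult leaves.

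Respiratory chain loci held smaller shares. Complexes III and IV pass electrons from ubiquinol through cytochrome c to oxygen. The 4 loci described under them held 0.595% ± 0.182, 0.506% ± 0.0862 and 3.57% ± 0.140 in the 3 groups. Apocytochrome b (ATMG00220) had 151, 165 and 168 FPKM in adult leaves, and cytochrome c oxidase subunit 3 (ATMG00730) had 125, 129 and 137. The 3 complex I loci held 1.76% ± 0.178, 1.52% ± 0.473 and 2.25% ± 0.0343. Their members went apart: NADH dehydrogenase 3 (ATMG00990) had 1.33% in ntrc seedlings and 0.457% in adults, while NADH dehydrogenase 2B (ATMG01320) had 0.113% and 1.11%. The 3 cytochrome c biogenesis loci held 0.243% ± 0.109, 0.172% ± 0.0224 and 0.954% ± 0.0325. Many loci of the same complexes may be among the 99 without description, so these sums cover described loci only.

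The 4 loci described as ribosomal proteins went the other way as a group, through 1 member. Other mitochondrial ribosomal protein genes, such as rpl2, rpl16 and rps3, are not among these 4, so the direction holds for these only. The 4 loci held 5.12% ± 0.934 in the wild type, 4.55% ± 2.40 in ntrc seedlings and 2.06% ± 0.136 in adult leaves. ATMG00980 (S12/S23) had 4.27% ± 2.33 in ntrc seedlings and 0.991% ± 0.157 in adults. For L5 (ATMG00210) the shares were 0.177% and 0.696%, for S4 (ATMG00290) 0.0612% and 0.220%, and for S7 (ATMG01270) 0.0434% and 0.153%, all higher in adults. The neighbours printed above, nad3 and rps12, thus correspond to the 2 described loci with a mean of at least 1 FPKM in seedlings whose shares were lower in adult leaves.

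**Figure D3:**
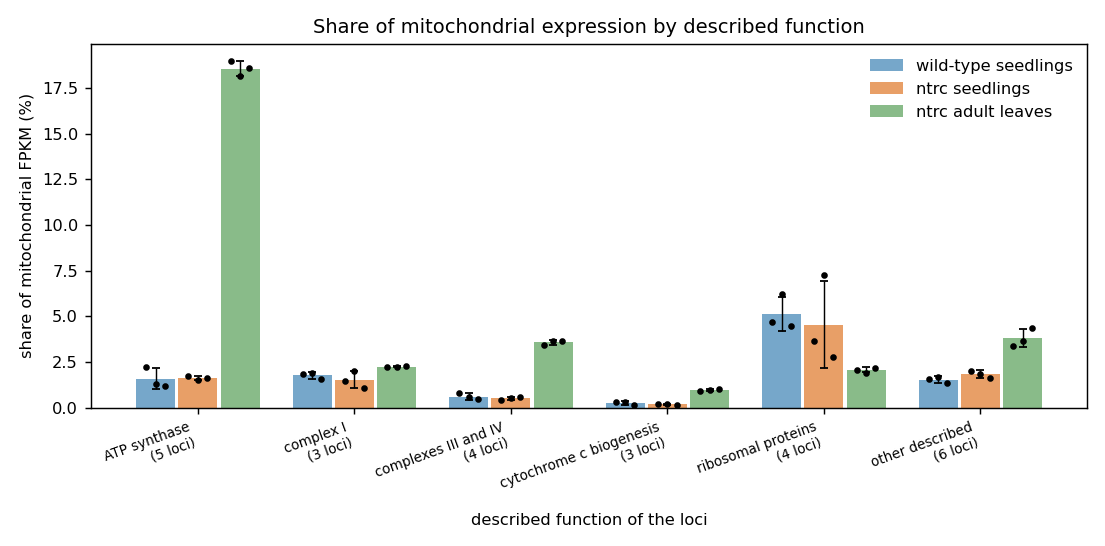
Share of mitochondrial FPKM held by the 25 described loci, grouped by description, in the 3 groups (bars are means, error bars SD, dots single libraries, n = 3). The ATP synthase bar is 18.6% in adult leaves and at most 1.61% in seedlings. The bar of the 4 described ribosomal protein loci is higher in seedlings than in adult leaves.

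Over the 69 loci with a mean share of at least 0.1% in either ntrc group, 50 had adult shares above seedling shares without overlap and 10 had the reverse. As background, shares of summed FPKM did not overlap between these 2 groups for 94.8% of 18986 loci of the whole table. That background uses shares of the total, for loci at 1 FPKM or more in at least 3 ntrc libraries. The 69 loci were scored on shares within mitochondrial FPKM, so the 2 rates are not like for like. Lack of overlap between these groups was in any case common over the whole table. Ratios given next are ranked among the 69 loci only. The highest ratios of adult to ntrc seedling share were 41.5 for ATMG00285, 32.3 for ATMG00060, 22.8 for ATMG00650, 21.5 for ATMG01080 and 17.5 for ATMG00270. Of these, ATMG00285 was listed at 0 in 2 of the 3 ntrc seedling libraries and ATMG00060 in 1, which makes their ratios imprecise. At the other end, the share in ntrc seedlings exceeded that in adults 12.6-fold for ATMG01370, 10.2-fold for ATMG01390, 7.36-fold for ATMG00020, 6.52-fold for ATMG01380 and 5.67-fold for ATMG01330. Across all 152 loci the rank correlation of mean shares was 0.863 between the seedling genotypes and 0.789 between the ntrc stages, where many seedling values are 0 or near 0.

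In most pairs, the chromosome 2 copy of a described locus carried values of the same order as the mitochondrial locus. Over 26 pairs of a described locus and its chromosome 2 counterpart, all 26 copies had a mean of at least 1 FPKM in adult leaves. The copy's part of the sum of both ran from 20.3% to 73.2%, with a median of 45.6%, and lay between 40% and 60% in 18 pairs. For subunit 9, whose coding sequence is identical in both places as printed above, ATMG01080 had 932 ± 37.2 and AT2G07671 had 777 ± 41.3 FPKM in adult leaves. Subunit 8 gave 243 ± 9.88 for ATMG00480 and 224 ± 10.2 for AT2G07707, and in the 6 seedling libraries the 2 values were equal within 0.1%. ATMG00900, described under cytochrome c biogenesis and the counterpart of the ccmC copies printed above, had 7.92 ± 0.644 FPKM in adult leaves, the copy without a difference 11.6 ± 0.760 and the copy with G550A 6.47 ± 0.468 (mean ± SD, n = 3).

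The sources used here do not say how the authors assigned reads that fit both places, so expression of a mitochondrial locus and of its copy cannot be told apart where the sequences are the same. In seedlings the same held at low level: ATMG00980 had 7.04 FPKM and AT2G07675 had 6.71 in ntrc seedlings. The 80 loci of the chromosome 2 region AT2G07665 to AT2G07795 summed to 29.5 to 36.9 FPKM in the wild type, 31.6 to 37.0 in ntrc seedlings and 2664 to 2820 in adult leaves. As with the mitochondrial sum of 100.4 to 191 FPKM in wild type and 146 to 211 in ntrc, the seedling genotypes overlapped.

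**Figure D4:**
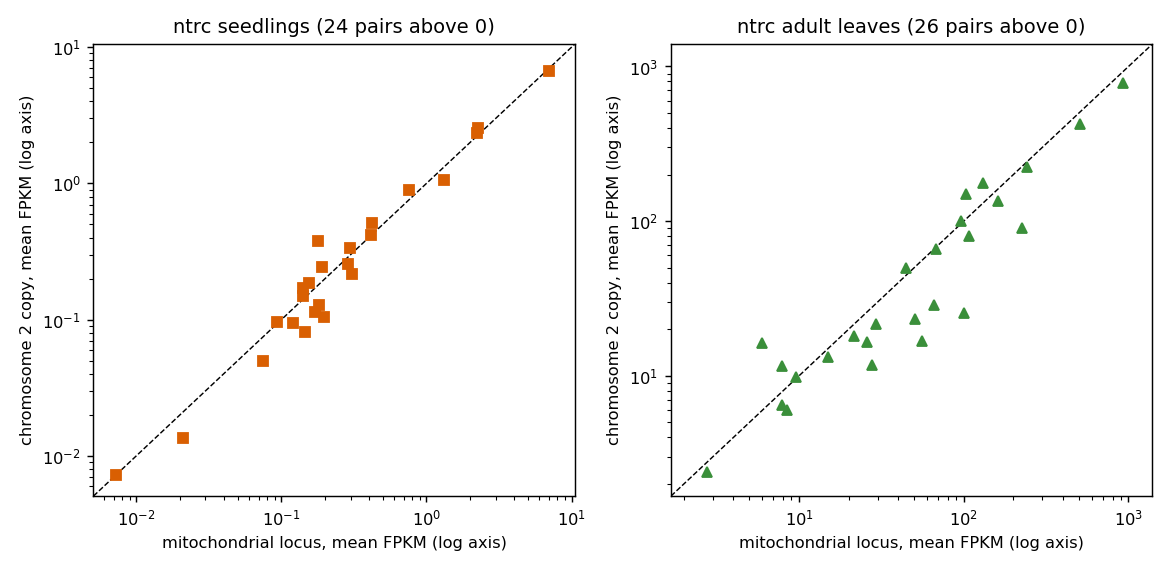
Mean FPKM of a described mitochondrial locus (horizontal, log axis) and of its chromosome 2 copy (vertical, log axis) in ntrc seedlings (left) and adult ntrc leaves (right), with the line of equal values dashed. The 24 seedling pairs and 26 adult pairs above 0 scatter around the line, at levels up to 7.04 FPKM in seedlings and 932 FPKM in adult leaves. Some lie well off it, such as ATMG00560 with 100 FPKM in adult leaves against 25.6 for its copy.

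ATMG09450 and ATMG09730, both above 0 in all 9 libraries, had exactly equal deposited values in the 6 seedling libraries and different ones in the 3 adult libraries.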

How the data were processed

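The authors deposited 1 table of 32833 loci in 9 libraries, read here as log2(FPKM + 1). The unit comes from the authors' name for the data, and the log base and pseudocount from the values. Per the submitters' processing notes, the build was TAIR10 and the tools were FastQC, HISAT2 and StringTie; versions, scaling and the treatment of reads with several matches are not given in the sources used here. The upper quartile of the log2 values was 3.70 in each seedling and 2.44 in each adult library, so the stages were scaled separately. The logarithm was undone for FPKM and shares. Depth is unknown, and loci listed at 0 may be failed estimates.

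The genotype test was limma 3.58.1 under R 4.3.3 (mean trend, robust), tested on simulated data with 200 changed genes. Library summaries were compared by exact permutation with SciPy 1.17.1. The labels call libraries biological replicates without naming separate cultures, so p-values measure the spread between these libraries. Deviations from group means correlated at 0.506, 0.406 and 0.278 between seedling libraries of the same number and at -0.388 to 0.115 otherwise. The numbers were therefore taken as pairs in the fit with the block and in counts of pairs, but not in the main fit. That pairing comes from the values, not from the labels, and the fit with the block stands beside results it changes. No 2 libraries held identical values.

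Loci, lists and tests were chosen with earlier results of these data known. Loci named are the 10 with the highest mean share in any group, all tested ones, and the 5 highest and 5 lowest ratios of share between ntrc stages among loci with a mean share of at least 0.1% in either. From each nuclear list come genes called in either fit and the 3 with the smallest unadjusted p. Other described loci were named for their function after their values were seen. RefSeq TAIR10.1 gave gene names for 32548 loci. Sequences and their coordinates come from matches within TAIR10.1 alone by BLAST 2.17.0, since its mitochondrial genome of 367808 bases may differ from that of the authors' build. Alternatives tried were the pseudocount, the filter on low values, 3 scalings, the replicate block, other sets of loci, and leaving out each library.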

Additional observations from a re-analysis of the deposited data

How the results depend on the processing

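The count of mitochondrial loci called between seedling genotypes was 0 in the main limma fit and in the 12 alternatives, with the smallest adjusted p between 0.167 (replicate block) and 1.00. In the fit without a filter, limma gave 7 of 115 loci at an unadjusted p under 0.05, against 1290 of 25059 over all loci. In the other fits it gave 1 to 3 of 10, against 401 of 18664 to 2185 of 18818 over all loci. The median log2 fold change of the tested loci was 0.04 to 0.43 when single libraries were left out, 0.037 over the 115 loci tested without a filter and 0.18 to 0.29 under the other settings. The replicate block changed no call of a mitochondrial locus, and over all loci it raised the calls from 5 to 73. Leaving out ntrc library 1 gave 24 calls over all loci.

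Small differences changed sign when single libraries were left out, and the cause was not tested. The difference between genotypes in the share of the 5 most abundant loci was -0.44 percentage points with all libraries, and -2.21 to 0.887 with 1 left out. The difference in effective number was -0.0726, -0.202 to 0.0573 with 1 left out, and 0.0569 without the most abundant locus. Log2 fold changes with 1 library left out ran from -0.19 to 0.49 for ATMG00030, -0.30 to 0.13 for ATMG00980, -0.15 to 0.063 for ATMG00990 and -0.057 to 0.22 for ATMG01000. Differences between the ntrc stages in both measures kept their direction in all 8 alternatives each. Leaving out single libraries could not reverse them, because the libraries of the stages did not overlap. No alternative left out ATMG00020 and ATMG01390 together. FPKM without counts limits every statement on loci near 0, and 142 loci had too little signal in seedlings for a test.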
